A study of Bos taurus with 8 samples.

Results

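Scavenger receptors are a loose family of membrane proteins that bind modified lipoproteins and other ligands, and here 8 of them, chosen around OLR1, were followed in bovine mammary epithelial cells after RNA interference against EEF1D. The listed genes were OLR1, SCARB1, SCARB2, MSR1, SCARA3, SCARA5, SCARF1 and STAB1. A probe was taken as theirs when the array design's own gene name was one of these symbols. This gave 14 probes for 7 of the 8 genes, of 43415 probes in all, which named 16472 genes. SCARF1 had no probe under that name. OLR1 was picked because its probe was at background in the controls and above it on every shRNA array, so those values are given as a description with no test. The other members were listed with it as relatives.

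The cells were primary mammary epithelial cells from the tissue of 1 lactating Holstein cow, used at the fifth passage. Total RNA was labelled with Cy3 and hybridised to 8 one-colour Agilent arrays. In 3 samples the cells carried the EEF1D-1357 shRNA and in 3 the EEF1D-1893 shRNA, both given the genotype EEF1D knockdown, and 2 controls had no shRNA. An shRNA is a short hairpin that is cut in the cell into a small RNA directed at a target transcript, and the labels name no empty or scrambled hairpin for the controls. Whether each sample was its own culture is not stated in the labels, and the p-values below reflect only the spread among these arrays, which may be technical. EEF1D is a subunit of the elongation factor complex that recharges eEF1A with GTP during translation.

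OLR1 encodes LOX-1, the lectin-like receptor for oxidised low-density lipoprotein, a membrane protein with a C-type lectin-like domain that was first cloned from bovine endothelium. The class B receptors SCARB1 and SCARB2 cross the membrane near both ends: SCARB1 takes up cholesteryl ester from high-density lipoprotein, and SCARB2 works mainly in lysosomes. The class A receptors MSR1, SCARA3 and SCARA5 share a collagen-like stalk, and SCARF1 and STAB1 are large receptors with many epidermal growth factor-like repeats, best known from endothelium and macrophages.

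Each member rests on very few probes, so the sequences of those that carry the results are shown. The OLR1 probe, A_73_113527, lies at chr5:107297092-107297151 on the plus strand of Btau_3.1. The SCARB2 probe, A_73_104289, lies at chr6:94258656-94258715 on the minus strand. SCARB1 is represented by A_73_P039891 at chr17:53861442-53861501 and by A_73_P340036, whose 60 bases are spread over chr17:53828829-53831069, 2241 genomic bases, and so cross at least 1 exon junction. SCARA3 has A_73_115521 at chr8:11218671-11218730 and A_73_P085901 at chr8:11219725-11219784, both on the minus strand. Exon and untranslated-region annotation of that build was not used here. The sequences below were read from the scanner files, 5′ to 3′; the junction-crossing SCARB1 probe is whole and the others show 30 of their 60 bases. Capitals mark runs of 5 or more of the same base and repeats of a base pair such as CA.
OLR1 A_73_113527: ttattttcaaagtcttctgctagtatgtag
SCARB2 A_73_104289: atactgctggttcctttcatgtgattcttg
SCARB1 A_73_P039891: gaagAAAAActgaatatcatcttttAAAAA
SCARB1 A_73_P340036: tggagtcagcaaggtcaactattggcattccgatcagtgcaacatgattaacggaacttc
SCARA3 A_73_115521: gatatcgtgccacctagtatcacccactca
SCARA3 A_73_P085901: cacaaACACACACACACACACACACACACA

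The OLR1 stretch holds no such run and the second SCARA3 stretch is almost wholly a CA repeat. G and C made up 28.3% of the OLR1 probe, less than in 99.3% of all probes, whose median was 45%.

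The signal of a probe is given as scaled log2 signal, the log2 of the processed intensity minus that array's 75th percentile, so that 0 is the 75th percentile and a difference of 1 is a doubling. The 75th percentile lay between 1276 and 2100 intensity units on the 8 arrays. Between 60.7% and 71.6% of probes were well above background, as the scanner software flags it, and no spot was saturated. Control replicate 1 stood apart: its spike-in probes lay 1.29 above its 75th percentile on the log2 scale, against 0.27 to 0.76 on the other arrays, and the SD over probes of the log2 difference between the controls was 0.83, against 0.50 to 0.73 between replicates of an shRNA. The EEF1D-1357 arrays shared slide 1 with control replicate 2, and the EEF1D-1893 arrays shared slide 2 with control replicate 1. Hairpin and slide therefore cannot be told apart except through 1 control on each slide. Keratins KRT5, KRT8, KRT14 and KRT18 were well above background on all 8 arrays, as was the casein gene CSN2, whereas CSN3 was so on 3 arrays and LALBA, another milk protein gene, on none.

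The targeted gene was read first. EEF1D gave a scaled log2 signal of 5.97, 5.85 and 5.09 with the EEF1D-1357 shRNA, 5.99, 5.74 and 5.76 with the EEF1D-1893 shRNA, and 7.11 and 6.14 in the controls. All 6 shRNA arrays lay below both controls, which was so for 9.19% of all genes. The fitted log2 difference of both shRNAs against control was -0.89 (SE 0.32), a signal of 53.9% of control, with a limma adjusted p of 0.243. Control replicate 1 weighed on it: the difference was -0.41 without that array and -1.38 without control replicate 2, where the adjusted p was 0.0378 and 23.1% of all genes passed. In fits with 1 control array the spread comes from the shRNA groups, and the lone control is assumed to vary as they do.

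OLR1 was detected with both hairpins and not in the controls. Its processed intensity was 360.0, 916 and 655 units on the EEF1D-1357 arrays, 78.1, 93.0 and 209 units on the EEF1D-1893 arrays, and 4.9 and 24.1 units in control replicates 1 and 2. On the scaled log2 scale these were -2.53, -1.20 and -1.62, then -4.37, -4.45 and -3.24, then -8.03 and -6.27. The 3 groups did not overlap: the EEF1D-1357 arrays were highest, the EEF1D-1893 arrays came next and the controls were lowest. Both control spots were flagged by the scanner as positive and significant against their local background, with no surrogate value, but not as well above background.

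**Figure D1:**
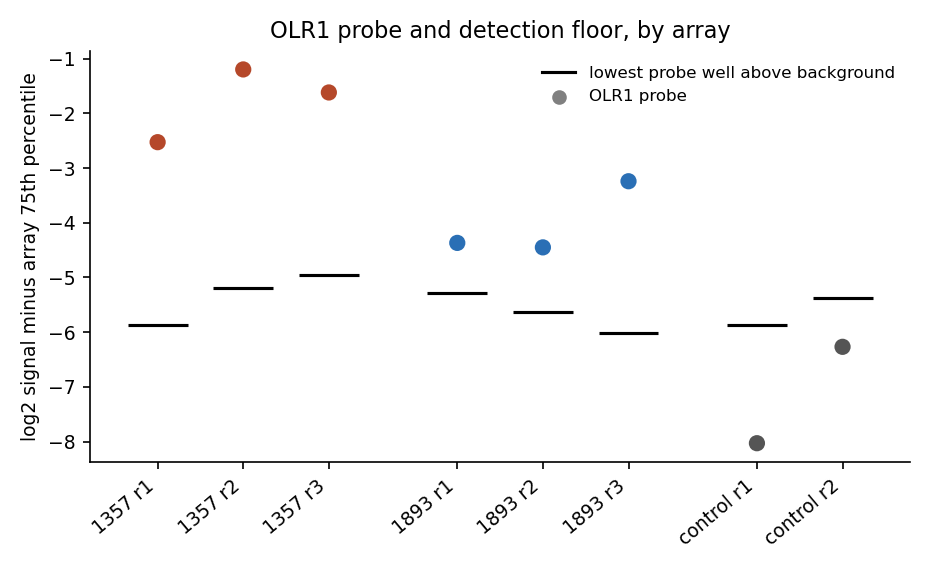
OLR1 probe on each of the 8 arrays (points, log2 signal minus the array's 75th percentile) with the lowest signal of any probe that was well above background on the same array (black bars), for the replicates (r) of each hairpin, labelled by its number, and of the control. The 6 shRNA points lie above their bars, the closest being EEF1D-1893 replicate 1 at -4.37 over a bar at -5.28, and both control points lie below theirs.

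The array on which OLR1 was nearest to the detection limit from above was EEF1D-1893 replicate 1, at -4.37 where the lowest detected probe was at -5.28. The nearest from below was control replicate 2, at -6.27 where the lowest detected probe was at -5.38. Group means were -1.78 ± 0.68 (SD, n = 3) with EEF1D-1357, -4.02 ± 0.68 (SD, n = 3) with EEF1D-1893 and -7.15 ± 1.25 (SD, n = 2) in the controls.

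Because the controls were at background, the fold is given as a lower bound, with each control array set to the higher of its lowest detected signal and the probe's own value. OLR1 was at least 14.3-fold higher with EEF1D-1357, at least 3.04-fold higher with EEF1D-1893 and at least 6.59-fold higher over both hairpins. Against the control of the same slide alone, the bounds were at least 12.1-fold on slide 1 and at least 3.59-fold on slide 2. After the alternative background correction, normexp with an offset of 50, and quantile normalization, the bounds were 6.32-fold and 2.06-fold. In bulk RNA, more cells with OLR1 transcript and more transcript per cell cannot be told apart.

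The contrast between the hairpins did not enter the choice of OLR1 and was tested. OLR1 was higher with EEF1D-1357 than with EEF1D-1893 on all 3 arrays against all 3, by 2.24 on the log2 scale (SE 0.57, 95% interval 0.89 to 3.59). Its unadjusted p was 0.00563 and its limma adjusted p over 12609 genes was 0.747, so it did not pass. The spread in this fit draws also on the 2 control spots below the detection limit. With only the hairpin groups fitted, the adjusted p was 0.215. Over the alternatives the adjusted p ranged from 0.0534, with array weights, to 0.9998, without EEF1D-1357 replicate 2. With array weights 4026 of 12609 genes had an unadjusted p under 0.05, against 809 in the main fit. Of all genes, 6.73% had the 3 EEF1D-1357 arrays above the 3 EEF1D-1893 arrays, 2.59% were higher at an unadjusted p under 0.05, and 0% passed the adjusted threshold in either direction. A value blocked by slide would rest on the 2 control spots below the detection limit and is not read for OLR1, so for this contrast hairpin and slide cannot be told apart.

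The detection pattern that chose OLR1 was rare on this array, which is a description and no support for OLR1, since it was picked by it. Only 3 of 43415 probes (0.00691%) were at background in both controls and well above it on all 6 shRNA arrays, and OLR1 was the only gene among 12609 (0.00793%) whose brightest probe did so. The reverse pattern, well above background in both controls and on no shRNA array, was met by 85 probes (0.196%). These counts are not on an equal footing, since control replicate 1 had the largest share of probes well above background (71.6%). Across the array, 58.5% of probes were well above background on all 8 arrays and 22.6% on none. Among the 14 scavenger receptor probes, 5 were so on all 8 arrays, 3 on none, and the OLR1 probe alone on exactly the 6 shRNA arrays.

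Of the 7 receptors with a probe, 6 had at least 1 probe well above background on 2 or more arrays, the limit for entering the fit, with 9 of the 14 probes. In the 5 tested members other than OLR1, no difference between either hairpin and the controls passed the adjusted threshold. The share of all genes that passed was likewise 0%, whereas at an unadjusted p under 0.05, over both shRNAs against control, 7.34% of all genes were higher and 9.60% were lower. At that looser level, judged by the brightest probe of each gene, none of the 5 passed for both shRNAs together. None passed for EEF1D-1893 either (6.77% of all genes higher and 7.31% lower). For EEF1D-1357, SCARB2 did so upwards (6.23% of all genes) and SCARB1 downwards (9.95% of all genes).

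**Figure D2:**
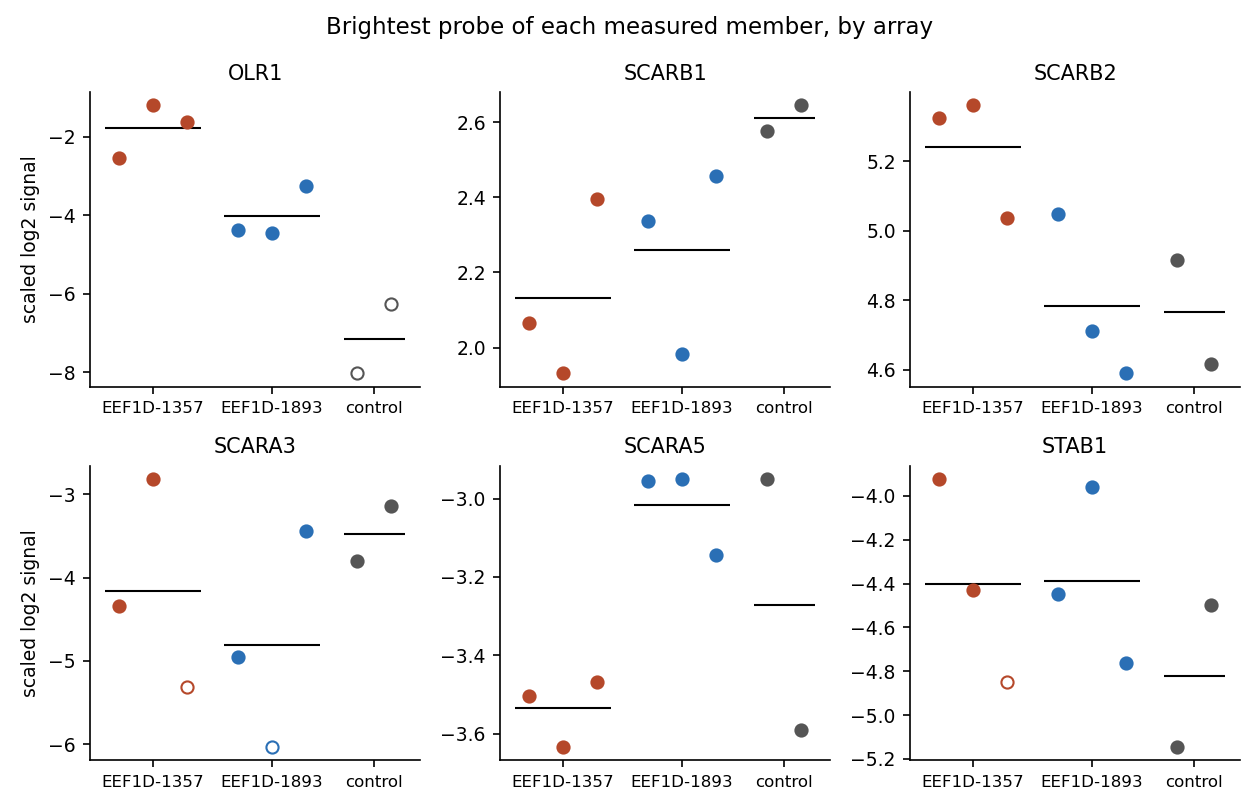
Scaled log2 signal (log2 signal minus the array's 75th percentile) of the brightest probe of each of the 6 measured receptors on each array, in 3 groups; horizontal lines are group means, filled points were well above background and open points were not. The vertical scales differ between panels: OLR1 spans 6.83, SCARA3 spans 3.21 and the other receptors between 0.68 and 1.22.

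SCARB1, the high-density lipoprotein receptor, was measured by 3 probes, all well above background on all 8 arrays. Its brightest probe, A_73_P039891, read 2.07, 1.93 and 2.40 with EEF1D-1357, 2.34, 1.98 and 2.46 with EEF1D-1893, and 2.58 and 2.64 in the controls on the scaled log2 scale. All 6 shRNA arrays lay below both controls, as they did for 9.19% of all genes. The log2 difference over both hairpins was -0.42 (SE 0.18, 95% interval -0.84 to 0.01, limma adjusted p = 0.306), which is 0.75-fold.

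The separate hairpins gave similar values for this SCARB1 probe. The difference was -0.48 for EEF1D-1357 (adjusted p = 0.309) and -0.35 for EEF1D-1893 (adjusted p = 0.474), and the hairpins differed from each other by -0.13 (95% interval -0.56 to 0.30). Within slide 1 it was -0.51 and within slide 2 it was -0.32. It stayed below 0 under each of the 21 alternatives that gave a value over both hairpins, from -0.53 to -0.19, with adjusted p from 0.197 to 0.915.

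The other SCARB1 probes did not show this separation. A_73_P250846 differed by -0.14 (SE 0.20, adjusted p = 0.736) and the junction-crossing A_73_P340036 by -0.01 (SE 0.24, adjusted p = 0.986) over both hairpins, among 25538 probes fitted one by one. A_73_P340036 read -4.72 and -3.98 in the 2 controls, either side of all 6 shRNA arrays, which lay between -4.63 and -3.99. A_73_P250846 read -3.96 in both controls, inside the shRNA range of -4.42 to -3.81. The order with all 6 shRNA arrays below both controls was therefore seen on 1 of the 3 SCARB1 probes. The other probes were far dimmer, at 48.3 to 144 units against 7610 to 11600 units for A_73_P039891. Whether the probes differed in their response was not tested.

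SCARB2, also called LIMP-2, carries the enzyme glucocerebrosidase to lysosomes. It had 1 probe, with 5.32, 5.36 and 5.04 with EEF1D-1357, 5.05, 4.71 and 4.59 with EEF1D-1893, and 4.92 and 4.62 in the controls. The 3 EEF1D-1357 arrays lay above both controls, which was so for 12.2% of all genes, and the EEF1D-1893 arrays lay among and around the controls. The log2 difference from control was 0.47 for EEF1D-1357 (SE 0.20, 95% interval 0.01 to 0.94, limma adjusted p = 0.303).

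For EEF1D-1893 the SCARB2 difference was 0.02 (95% interval -0.45 to 0.48, adjusted p = 0.976), and it turned to -0.13 against the control of its own slide. The hairpins differed by 0.46 (SE 0.18, 95% interval 0.04 to 0.88, unadjusted p = 0.0361), which did not pass after adjustment (adjusted p = 0.747), and by 0.76 with slide as a block (adjusted p = 0.207). The highest EEF1D-1893 array, at 5.05, lay just above the lowest EEF1D-1357 array, at 5.04.

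**Figure D3:**
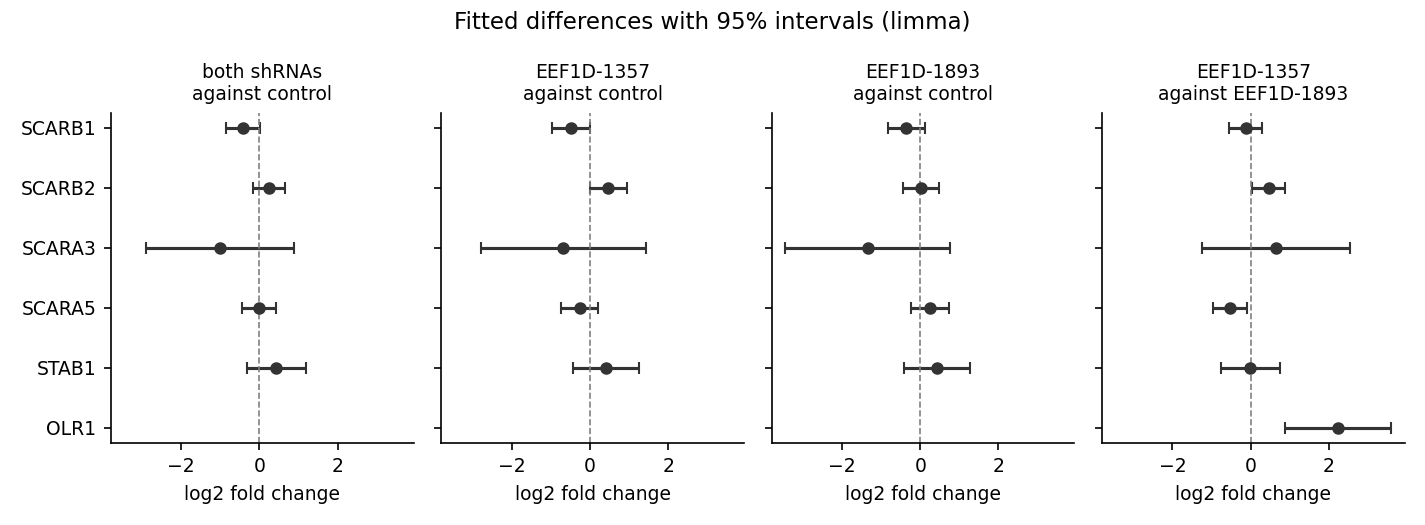
Fitted log2 fold change (points) with 95% intervals (bars) from limma for the brightest probe of each receptor in the 4 contrasts named above the panels; the dashed line is 0. OLR1 is drawn only for EEF1D-1357 against EEF1D-1893 (2.24), because it was chosen on its difference from control. The SCARA3 intervals are the widest drawn, reaching from -2.90 to 0.88 for both shRNAs.

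The class A receptors were dim or not detected. MSR1, the macrophage receptor for modified lipoproteins, had 2 probes, and neither was well above background on any of the 8 arrays. Its processed intensity ranged from 7.6 to 14.6 units for A_73_102799 and from 9.0 to 16.4 units for A_73_115241. The scanner replaced the measured value with a surrogate on 7 arrays for the first and on 5 for the second, so these carry no order and no fold is given.

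SCARA3, described as protecting cells from oxidative damage, had 2 probes. A_73_115521 read -4.34, -2.82 and -5.31 with EEF1D-1357, -4.95, -6.03 and -3.45 with EEF1D-1893, and -3.80 and -3.14 in the controls. It was well above background on 6 arrays, and not on EEF1D-1357 replicate 3 or EEF1D-1893 replicate 2. The shRNA groups spread over both sides of the controls, with 1 of 6 arrays above both and 4 below both.

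The log2 difference of this SCARA3 probe over both hairpins was -1.01, with an SE of 0.80 and a 95% interval of -2.90 to 0.88 (limma adjusted p = 0.532), wide enough to hold sizeable differences in either direction. A_73_P085901, the CA-repeat probe, was also well above background on 6 arrays and spread over 1.01 rather than 3.21. It was not well above background on EEF1D-1357 replicates 2 and 3, which enter the EEF1D-1357 difference below. It read -4.58, -5.12 and -5.00 with EEF1D-1357, -4.54, -4.37 and -4.79 with EEF1D-1893, and -4.35 and -4.11 in the controls. All 6 shRNA arrays were below both controls on it, the closest at -4.37 against -4.35. By brightest probe, 9.19% of all genes had this order. The log2 difference was -0.50 (SE 0.19, limma unadjusted p = 0.0345, adjusted p = 0.238). It was -0.67 for EEF1D-1357 (SE 0.22, unadjusted p = 0.0166, adjusted p = 0.214) and -0.33 for EEF1D-1893 (SE 0.22, adjusted p = 0.494). At an unadjusted p under 0.05, 4742 of 25538 probes passed for both shRNAs and 4532 for EEF1D-1357, in either direction. The order of arrays differed between the probes: EEF1D-1357 replicate 2 was the highest array on A_73_115521 and the lowest on A_73_P085901.

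**Figure D4:**
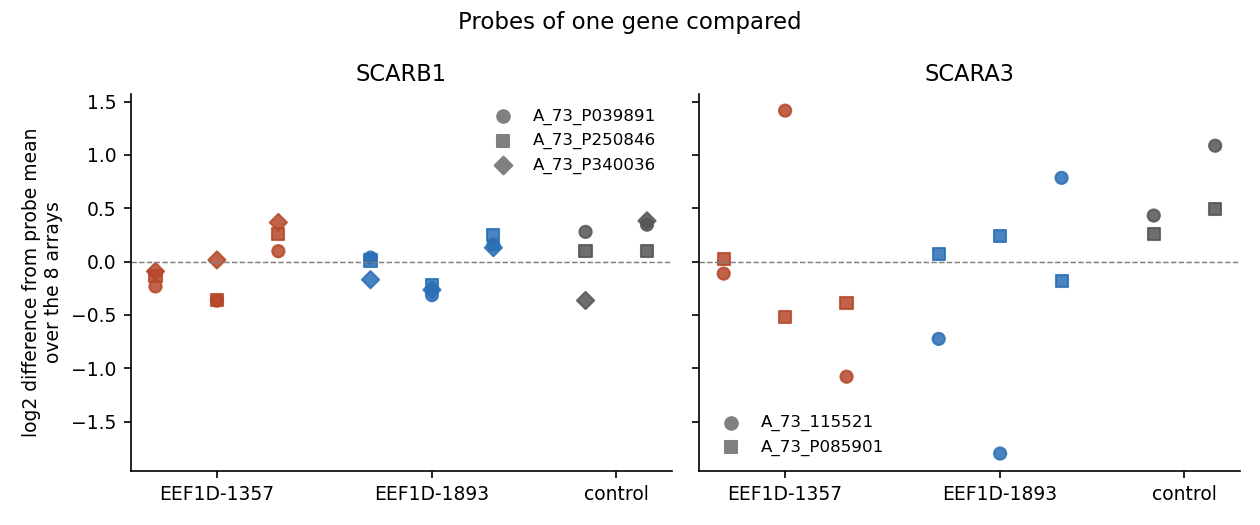
Log2 difference of each array from the probe's mean over the 8 arrays for the 3 SCARB1 probes (left) and the 2 SCARA3 probes (right), by group; marker shapes are probes. The SCARB1 probes part mainly at control replicate 1, and the SCARA3 probes part most at EEF1D-1357 replicate 2 and EEF1D-1893 replicate 2.

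SCARA5 binds ferritin and delivers iron to cells. Of its 3 probes, A_73_P402096 was well above background on all 8 arrays, A_73_106053 on control replicate 1 alone and A_73_P420461 on none. A_73_P402096 read -3.50, -3.63 and -3.47 with EEF1D-1357, -2.96, -2.95 and -3.14 with EEF1D-1893, and -2.95 and -3.59 in the controls. The hairpin groups did not overlap, and each control lay with the hairpin on its own slide.

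Over both hairpins the SCARA5 difference from control was -0.01 (SE 0.18, 95% interval -0.44 to 0.43, limma adjusted p = 0.990), and its sign turned under 8 of 21 alternatives, quantile normalization and median scaling included, which gave 0.08 each. The EEF1D-1357 arrays lay below the EEF1D-1893 arrays by 0.52 (SE 0.18, 95% interval of the difference -0.95 to -0.09, unadjusted p = 0.0253, adjusted p = 0.747). This order of arrays held for 14.9% of all genes, and 3.83% were lower at an unadjusted p under 0.05. With slide as a block the hairpin difference was 0.12 (adjusted p = 0.740), the opposite sign. Leaving out control replicate 2 gave EEF1D-1357 a difference of -0.59 from the remaining control, on the other slide, with an adjusted p of 0.0381 in a fit with 1 control array in which 2906 of 12609 genes passed, and leaving out control replicate 1 gave 0.06.

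STAB1, a clearance receptor of sinusoidal endothelium and macrophages, had 2 probes. A_73_P063531, at chr22:49473316-49473375, read -3.92, -4.43 and -4.85 with EEF1D-1357, -4.45, -3.96 and -4.76 with EEF1D-1893, and -5.14 and -4.50 in the controls. The groups overlapped, since 4 of 6 shRNA arrays were above both controls and the other two lay between them. It was well above background on every array except EEF1D-1357 replicate 3.

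The STAB1 difference over both hairpins was 0.43 (SE 0.32, 95% interval -0.33 to 1.18, limma adjusted p = 0.508), with 0.10 when control replicate 1 was left out and 0.75 when control replicate 2 was left out. Within slide 1 it was 0.10 and within slide 2 it was 0.75. The hairpins differed by -0.01 (95% interval -0.76 to 0.74), with the sign turning under quantile normalization (0.14) and median scaling (0.05). The second probe, A_73_P161192, was well above background on control replicate 1 alone.

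Markers of the cells in which several of these receptors are best known were also read, as signal summed over the markers in units of each array's 75th percentile. Of 15 macrophage and monocyte markers on the array, 8 were well above background on 2 or more arrays, among them CD14, CD68 and TYROBP on all 8, while C1QA, C1QC, CD86 and MARCO were so on none and CSF1R and ITGAM on 1 each. Their summed signal was 6.96 to 8.46 with EEF1D-1357, 6.43 to 7.56 with EEF1D-1893 and 7.04 to 7.72 in the controls, ranges that overlap. Of 12 endothelial markers other than STAB1, 6 were well above background on 2 or more arrays. These were VWF on 8, ROBO4 on 7, FLT1 on 5, CLDN5 and ERG on 3 each and STAB2 on 2. CDH5, KDR, PECAM1 and TEK were so on none. The summed signal of the endothelial markers was 0.23 to 0.33, 0.33 to 0.49 and 0.33 to 0.63 in the same order of groups, lowest with EEF1D-1357. By brightest probe, 18.4% of all genes had the EEF1D-1357 arrays below both controls. What part other cells had in the OLR1 signal was not tested.

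The chromosome 5 neighbours of OLR1 were taken from the RefSeq gene order of the assembly ARS-UCD2.0, 5 genes to each side. OLR1 lies there among genes for other C-type lectin-like receptors. CLEC7A, which encodes the beta-glucan receptor dectin-1 and comes next to OLR1, was well above background on 4 arrays, namely EEF1D-1357 replicates 1 and 2, EEF1D-1893 replicate 3 and control replicate 1. Its log2 difference over both hairpins was 0.63 (SE 0.92, limma adjusted p = 0.748).

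GABARAPL1, an autophagy gene next but 1 on the other side, was well above background on all 8 arrays and differed by -0.47 (SE 0.25, adjusted p = 0.380). TMEM52B and CLEC9A were well above background on no array, and CLEC1A and CLEC12B on 1 each. Of the 10 neighbours, 4 were not matched to a probe. No other measured gene among them shared the OLR1 detection pattern.

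The arrays' order on OLR1 was compared with that of every gene by Pearson correlation of scaled log2 signal over the 8 arrays, as a description. These arrays fall into 3 groups, which any gene that separates them shares. Among the highest values were those for DNAJC25 (0.96), FAM83G (0.95), LMO7 (0.95) and JHY (0.95). DNAJC25 was at -0.39 ± 0.12 (SD, n = 2) in the controls, 0.00092 ± 0.059 (SD, n = 3) with EEF1D-1893 and 0.13 ± 0.06 (SD, n = 3) with EEF1D-1357. The lowest were for MAML2, a Notch co-activator, EEF2K, the kinase that inactivates elongation factor 2, and TTC7B (-0.98 each). EEF2K was at 1.87 ± 0.38 (SD, n = 2) in the controls, 1.20 ± 0.21 (SD, n = 3) with EEF1D-1893 and 0.88 ± 0.12 (SD, n = 3) with EEF1D-1357. Within the 6 shRNA arrays alone the values were 0.88 for DNAJC25 and -0.95 for EEF2K. Both genes were picked on all 8 arrays, these 6 included, so this is no separate check. The OLR1 values of the controls, which enter the correlation over 8 arrays, lay below the detection limit.

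Other scavenger receptors were read from a list of 30 genes, of which 24 had a probe and 14 passed the detection limit. None of the 14 passed the adjusted threshold in limma in any of the 4 contrasts. At an unadjusted p under 0.05 for both shRNAs, 1 was higher (CXCL16, a chemokine that also binds oxidised lipoprotein, 0.35, SE 0.13, adjusted p = 0.257) and 1 lower (AGER, the receptor for advanced glycation end products, -0.74, SE 0.15, adjusted p = 0.144). Of all genes, 7.34% were higher and 9.60% lower at that level. The median log2 difference of the list was -0.05, beside -0.07 over all genes, and it moved to 0.26 without control replicate 1 and -0.38 without control replicate 2.

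AGER was -2.73, -2.72 and -2.71 with EEF1D-1357, -2.99, -2.68 and -2.75 with EEF1D-1893, and -1.84 and -2.20 in the controls, with all 6 shRNA arrays below both, as for 9.19% of all genes. Its adjusted p was 0.0359 with slide as a block, where 5.51% of all genes passed, and 0.0170 without control replicate 2, where 23.1% did. CD36, the class B relative that takes up oxidised lipoprotein and fatty acids, read -3.15, -2.90 and -5.90 with EEF1D-1357, -3.97, -7.37 and -5.91 with EEF1D-1893, and -7.13 and -6.56 in the controls. It was well above background on 4 shRNA arrays, 2 of each hairpin, and in neither control. The shRNA arrays overlapped the controls, with EEF1D-1893 replicate 2 below both. The share of all genes with this detection pattern was not counted. No lower bound of the fold is given for either hairpin, since each mean includes an array on which CD36 was not well above background. The EEF1D-1893 mean also lay below the detection limit of the controls.

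Genes of lipoprotein uptake, lysosomal handling and efflux, where SCARB1 acts, numbered 27 tested of 32 listed. None passed after adjustment, and the median difference over both hairpins was -0.07, the same as over all genes to 2 decimals. At an unadjusted p under 0.05 there were 3 higher and 2 lower, beside 7.34% and 9.60% of all genes. The median was 0.16 without control replicate 1, beside 0.06 over all genes, and -0.11 without control replicate 2, beside -0.21. NCEH1, which hydrolyses stored cholesteryl ester, was 0.31, 0.16 and -0.08 with EEF1D-1357, 0.93, 0.40 and -0.35 with EEF1D-1893, and averaged -1.09 ± 0.13 (SD, n = 2) in the controls. All 6 shRNA arrays lay above both controls, as they did for 7.69% of all genes, by 1.32 in the fit (SE 0.31, adjusted p = 0.153). SOAT1, which esterifies cholesterol, differed by 0.40 (SE 0.13, adjusted p = 0.216), the Wnt co-receptor LRP6 by -0.37 and the caveolar coat gene CAV1 by 0.65 (adjusted p = 0.289 and 0.292).

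For the lysosomal genes around SCARB2, 20 of 21 listed were tested and none passed. Against control their median was -0.13, with 2 higher and 1 lower at an unadjusted p under 0.05. The shares over all genes were 7.34% and 9.60%. Between the hairpins the median was 0.29, beside -0.05 over all genes, and 18 of 20 genes lay higher with EEF1D-1357, beside 41.6% of all genes. The 18 of 20 counts genes on the same arrays and was not tested. By array the hairpins overlapped: the list's median difference from each gene's mean over all arrays was 0.24, 0.18 and -0.10 with EEF1D-1357. It was 0.02, -0.003 and -0.43 with EEF1D-1893, and 0.54 and -0.22 in control replicates 1 and 2. With slide as a block the median between the hairpins was 1.03, beside 0.16 over all genes, with 17 of 20 above 0. That value takes each hairpin against the 1 control of its slide, so it also carries the gap between the controls. SCARB2 itself, not counted in the list, was higher with EEF1D-1357 by 0.46. The list's median against control turned from -0.58 without control replicate 2 to 0.25 without control replicate 1. LAPTM4A differed over both hairpins by 0.55 (SE 0.19, adjusted p = 0.237), TMEM192 by 0.43 (adjusted p = 0.278), the cystine exporter CTNS by -0.50 (adjusted p = 0.263) and the saposin precursor PSAP by -0.60 (adjusted p = 0.326).

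The last list holds genes described elsewhere, mostly in endothelium, as induced through LOX-1 or as inducing it, such as cytokines, adhesion molecules and matrix metalloproteinases. Of 45 listed, 38 were tested and none passed after adjustment in any contrast. Over both hairpins their median was 0.29 and 29 of 38 lay above 0, beside a median of -0.07 and 42.8% over all genes. At an unadjusted p under 0.05 there were 6 higher and 1 lower, beside 7.34% and 9.60% of all genes. The median was 0.26 without control replicate 1, beside 0.06 over all genes, and 0.27 without control replicate 2, beside -0.21. For EEF1D-1893 alone it was 0.25, beside -0.03 over all genes, with 26 of 38 above 0, beside 46.8% of all genes. Against the control of its own slide it was 0.14, beside -0.19 over all genes, with 22 of 38 above 0, and without control replicate 1 it was 0.13, beside 0.08 over all genes.

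CXCL8, the neutrophil-attracting chemokine, read 0.17, 0.32 and -1.11 with EEF1D-1357, -1.01, -1.71 and -0.17 with EEF1D-1893, and -3.46 and -2.36 in the controls. All 6 shRNA arrays were above both controls, by 2.33 in the fit (SE 0.54, adjusted p = 0.153), and the adjusted p was 0.0399 without control replicate 2, a fit with 1 control array in which 23.1% of all genes passed. The order seen for CXCL8, with all 6 shRNA arrays above both controls, held for 7.69% of all genes. The cytokine IL1A differed by 1.13 (SE 0.37, adjusted p = 0.221), the receptor CD40 by 0.74 (SE 0.24, adjusted p = 0.218) and the collagenase MMP1 by 0.88 (SE 0.30, adjusted p = 0.231). VCAM1, MMP3, NOX1 and NOX4 of this list were well above background on no array.

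**Figure D5:**
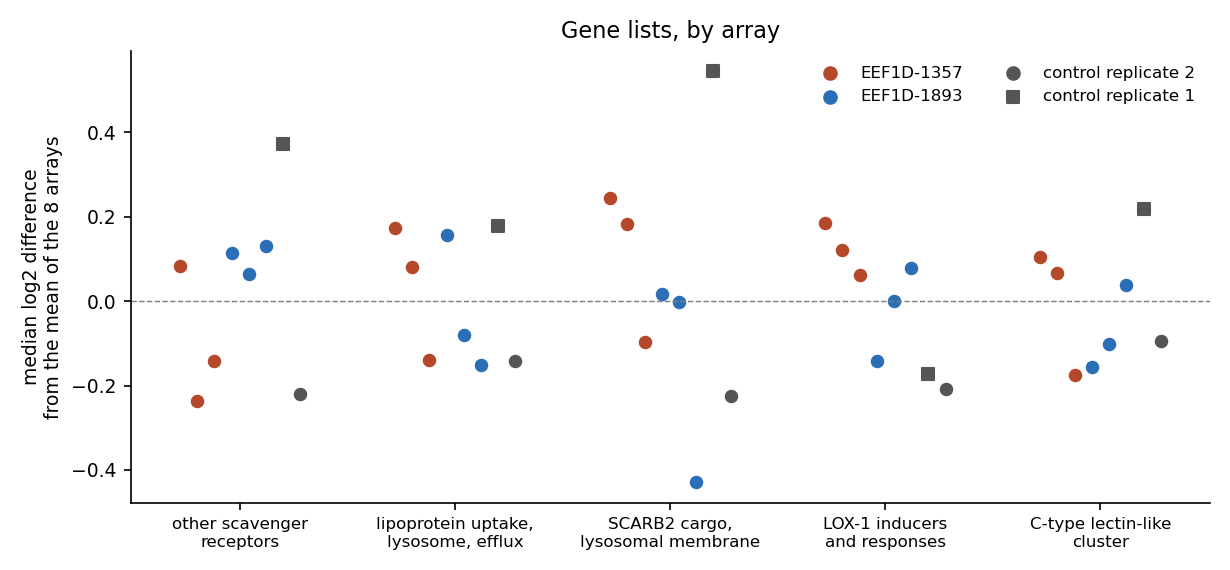
For each of the 5 gene lists (members left out), the median over its tested genes of the log2 difference from the gene's mean over the 8 arrays, 1 point per array, coloured by group; the square is control replicate 1. On the list of LOX-1 inducers and responses both controls are lowest, at -0.17 and -0.21, whereas on the other 4 lists the controls lie apart from each other.

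The list of the gene cluster around OLR1 held 19 genes with a probe, of which 14 are lectin-like receptors or relatives and 5 are other genes of the region. Of the 14, 8 were well above background on none of the 8 arrays, beside 16.7% of all named genes, 4 were so on 1 array, and CLEC2D and CLEC7A passed the detection limit. The other tested genes of the list were GABARAPL1, MAGOHB, STYK1 and YBX3. None passed after adjustment. CLEC2D differed by -0.63 (SE 0.16, adjusted p = 0.165), with both controls and EEF1D-1893 replicate 3 as the arrays well above background.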

How the data were processed

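The members, gene lists and rules were chosen with earlier results of these data known. Per the file headers, the deposited scanner files hold Cy3 spot intensity from Agilent Feature Extraction 10.7.3.1, background-subtracted and not normalized between arrays, with 0 or 1 flags per spot and positions on Btau_3.1; the submitters' processing notes name version 9.1. The series' deposited log2 table has a median of 7.56 to 7.58 per array, and its correlation with the scanner values was 0.998 to 1.000; how it was normalized is not given in the sources used here, and it served only as an alternative.

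Of 43653 probes, 238 with an outlier spot were left out. Probes were named through RefSeq (34265 named). Log2 intensity minus each array's 75th percentile was fitted with limma 3.58.1 (R 4.3.3), 1 mean per group over all 8 arrays, using the brightest probe per gene among those detected well above background on 2 arrays or more, 12609 genes. Tests were two-sided, with Benjamini-Hochberg adjustment and a threshold of 0.05. There were 5 residual degrees of freedom and 2.12 from the prior, and precision is limited by the number of arrays. The fit was tested on simulated data. Named genes are all members, up to 4 genes per list by p-value, the 5 most and 3 least OLR1-like genes, of which 1 is not reported here, and the neighbours; VCAM1, MMP3, NOX1 and NOX4 were named after their values were seen. Alternatives covered background correction, scaling, filter, probe choice, variance model, slide, replicate number and each array left out.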

Additional observations from a re-analysis of the deposited data

How the results depend on the processing

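The precision is limited by 2 controls of unequal quality, with 1 on each slide, and by signals near background for OLR1, SCARA3 and STAB1. Over 57 results and 1089 alternative values, 1032 kept their direction and side of the threshold or moved by less than the replicate spread. The number of genes called, 0 in each contrast, rose over both shRNAs to 2 with a trended robust prior and to 695 with slide as a block; for EEF1D-1357 to 3 with only probes detected on all 8 arrays, 2 with the trended prior and 28 with slide as a block; for EEF1D-1893 to 1847 with slide as a block; and between the hairpins to 1 with normexp and quantile normalization, 6 with slide as a block and 13 with array weights. Leaving out 1 array gave 0 to 2916, 0 to 2906 and 0 to 1847 genes for the first 3 contrasts, the highest without control replicate 2; without control replicate 1 they were 26, 28 and 25. The same numbers do not pair the samples, since the correlation of their deviations lay between -0.11 and 0.14, and with the replicate block 0 genes were called in each contrast.

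With an offset of 50, normexp and quantile normalization lowered the OLR1 bound to 6.32-fold for EEF1D-1357 and 3.61-fold over both; leaving out 1 array gave 11.7 to 18.5, 2.32 to 3.59 and 5.57 to 7.81 for EEF1D-1357, EEF1D-1893 and both. The filter of all 8 arrays leaves OLR1, SCARA3 and STAB1 without a value. Signs turned in these differences, none of which passed as reported. SCARB2 for EEF1D-1893 became -0.13 with slide as a block and -0.13 to 0.17 with an array left out. SCARA3 went from -0.68 to 0.18 for EEF1D-1357 with array weights, and between hairpins from 0.65 to -0.00045 with slide as a block and -0.016 to 1.34 with an array left out. SCARA5 over both became 0.067 (normexp), 0.077 (quantile), 0.082 (median scaling), 0.072 (deposited table), 0.0098 (replicate block) and -0.33 to 0.31 (an array left out). With slide as a block SCARA5 was 0.055 for EEF1D-1357, -0.067 for EEF1D-1893 and 0.12 (from -0.52) between hairpins, and with an array left out -0.59 to 0.055 and -0.067 to 0.57. STAB1 between hairpins became 0.11 (normexp), 0.14 (quantile), 0.053 (median scaling), 0.14 (deposited table) and -0.25 to 0.21 (an array left out). Besides those named in the report, SOAT1, LAPTM4A, TMEM192, IL1A and CLEC2D passed without control replicate 2, with adjusted p from 0.0202 to 0.0418, as did 23.1% of all genes; that fit has 1 control array, and the shRNA groups give its spread. The cause was not tested. List medians without each control, by slide and by scaling were chosen after seeing the data.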

Other observations

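SCARF1, an endothelial receptor for acetylated low-density lipoprotein, had no probe under its own symbol in the array design, but RefSeq naming by another accession gave it A_73_P064991. This probe was well above background on EEF1D-1357 replicate 1 and both controls. It read -5.29, -6.32 and -6.57 with EEF1D-1357, -5.04, -6.79 and -6.04 with EEF1D-1893, and -5.18 and -5.15 in the controls. Of the 6 shRNA arrays 5 were below both controls, and the log2 difference was -0.84 (SE 0.49, limma adjusted p = 0.409).

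The other two probes with the OLR1 detection pattern, named after their values were seen, were those of TXNDC11, a thioredoxin-domain protein, and ALG1, a mannosyltransferase of N-glycan assembly. The TXNDC11 probe lay between -4.98 and -4.17 on the shRNA arrays and at -5.88 and -5.56 in the controls. The ALG1 probe lay between -5.23 and -4.41 on the shRNA arrays and at -7.24 and -5.88 in the controls. Neither was the brightest probe of its gene.

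In units of the 75th percentile, summed signal of the basal and myoepithelial markers was 240.4 to 295 with EEF1D-1357, 251 to 402 with EEF1D-1893 and 346 to 369 in the controls. The EEF1D-1357 arrays thus lay below both controls, an order that 18.4% of all genes had by brightest probe. Whether the share of basal cells differed was not tested. For luminal markers the summed signal was 489 to 519.8, 485 to 552 and 516 to 933. The summed signal of T cell, B cell and general leukocyte markers was 16.7 to 28.3 with EEF1D-1357, 22.1 to 24.5 with EEF1D-1893 and 13.9 to 23.4 in the controls. That of neutrophil markers was 0.61 to 4.595, 0.65 to 1.78 and 1.33 to 1.75, and that of fibroblast markers was 106.5 to 147, 126 to 154 and 116 to 230.1.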
